A study of Mus musculus with 20 samples.

Results

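Hepatic and renal drug and anion transporters were followed by 9 genes chosen by name: Slc10a1, Slco1b2, Slco1a1, Slco1a4, Slco1a6, Slco2b1, Slc22a7, Abcc2 and Abcc3. All 9 were found among the 57010 genes of the count table by Ensembl identifier and described in all 20 libraries. The donors were male UM-HET3 mice, a genetically heterogeneous stock, whose livers and kidneys were sequenced and which were 12 months old when treatment began. For 28 days, osmotic minipumps under the skin delivered either vehicle, 50% DMSO and 50% PEG300, or the 7c mixture. The mixture gave repsox, tranylcypromine, DZNep, CHIR99021, forskolin and TTNPB at 0.1 mg/kg/day each and valproate at 1 mg/kg/day, and each tissue was represented by 6 7c and 4 vehicle libraries. The labels call these libraries biological replicates and do not say that a liver and a kidney with the same number came from 1 mouse.

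Hepatocytes clear bile salts, bilirubin conjugates, hormones and many drugs by taking them up from sinusoidal blood and exporting them into bile, and proximal tubule cells of the kidney secrete or recover organic anions in a similar way. Uptake is carried by members of the SLC families, among them the organic anion transporting polypeptides encoded by Slco genes. Export is carried by multidrug resistance-associated proteins, pumps of the ABC family that use ATP, which sit either in the membrane facing bile or urine or in the membrane facing blood.

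Levels are given as CPM, counts scaled to a common library size, after TMM scaling across all 20 libraries, and levels of different genes are compared only as CPM per kb of annotated exon. Library totals were 28383359 to 34153084 counts in liver and 27855849 to 64872451 in kidney. All 20 genes of a hepatocyte-restricted list had counts in every liver, and all 14 proximal tubule markers had counts in every kidney. Replicate 6 of the 7c livers stood apart, with 281 CPM of Acta1 and 200 CPM of Myh4, genes of skeletal muscle that had at most 2 counts and 0 counts in any other liver. RNA came from bulk tissue, so fewer cells of a type and less RNA per cell cannot be told apart. The Slco1a genes resemble each other in sequence: 2.22% of the 50-base windows of the canonical Slco1a1 transcript, 2.63% of those of Slco1a4 and 5.6% of those of Slco1a6 also occurred in transcripts of other genes, so that their counts carry some uncertainty between paralogs. The last exon of 1 of 13 annotated Slc10a1 transcripts shared 268 bases, 8.03% of the exon bases of the gene, with Srsf5 on the other strand, which had 3876 to 12325 counts per library. The strand setting of the counting is not given in the sources used here.

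The genes lie at these positions of GRCm39 in GENCODE vM39. Slco1b2 is on the plus strand at chr6:141575179-141633546, and Slco1a4 (chr6:141751165-141802036), Slco1a1 (chr6:141853007-141892690) and Slco1a6 (chr6:142031487-142154247) are on the minus strand of the same chromosome. Slc10a1 (chr12:80996372-81015479), Slco2b1 (chr7:99306783-99360547), Slc22a7 (chr17:46743044-46749407) and Abcc3 (chr11:94233874-94283823) are also on the minus strand, and Abcc2 (chr19:43770631-43829179) is on the plus strand. Counts cover the annotated exons of each gene.

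The first question was where each transporter was transcribed. In vehicle mice all 9 genes differed between liver and kidney at an adjusted p below 0.05 in edgeR's quasi-likelihood test, against 53.4% of all 17245 genes tested, so that a call by itself separates these genes little from others. Of the 9, 7 were higher in liver, as were 25.7% of all genes, and 2 were higher in kidney, as were 27.7%. In 7c mice, which share no library with that comparison, the same 7 were higher in liver and the same 2 in kidney, against 65.7% of 17117 genes called in all, 30.9% higher in liver and 34.8% higher in kidney. The split of all genes depended on the scaling: with library totals in place of TMM, 22.7% of the called genes were higher in liver in vehicle mice and 21.8% in 7c mice, where TMM gave 48.2% and 47.0%. The median of all genes then lay at -0.66 and -0.71 on the log2 scale, liver against kidney, in place of -0.06 and -0.08.

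**Figure D1:**
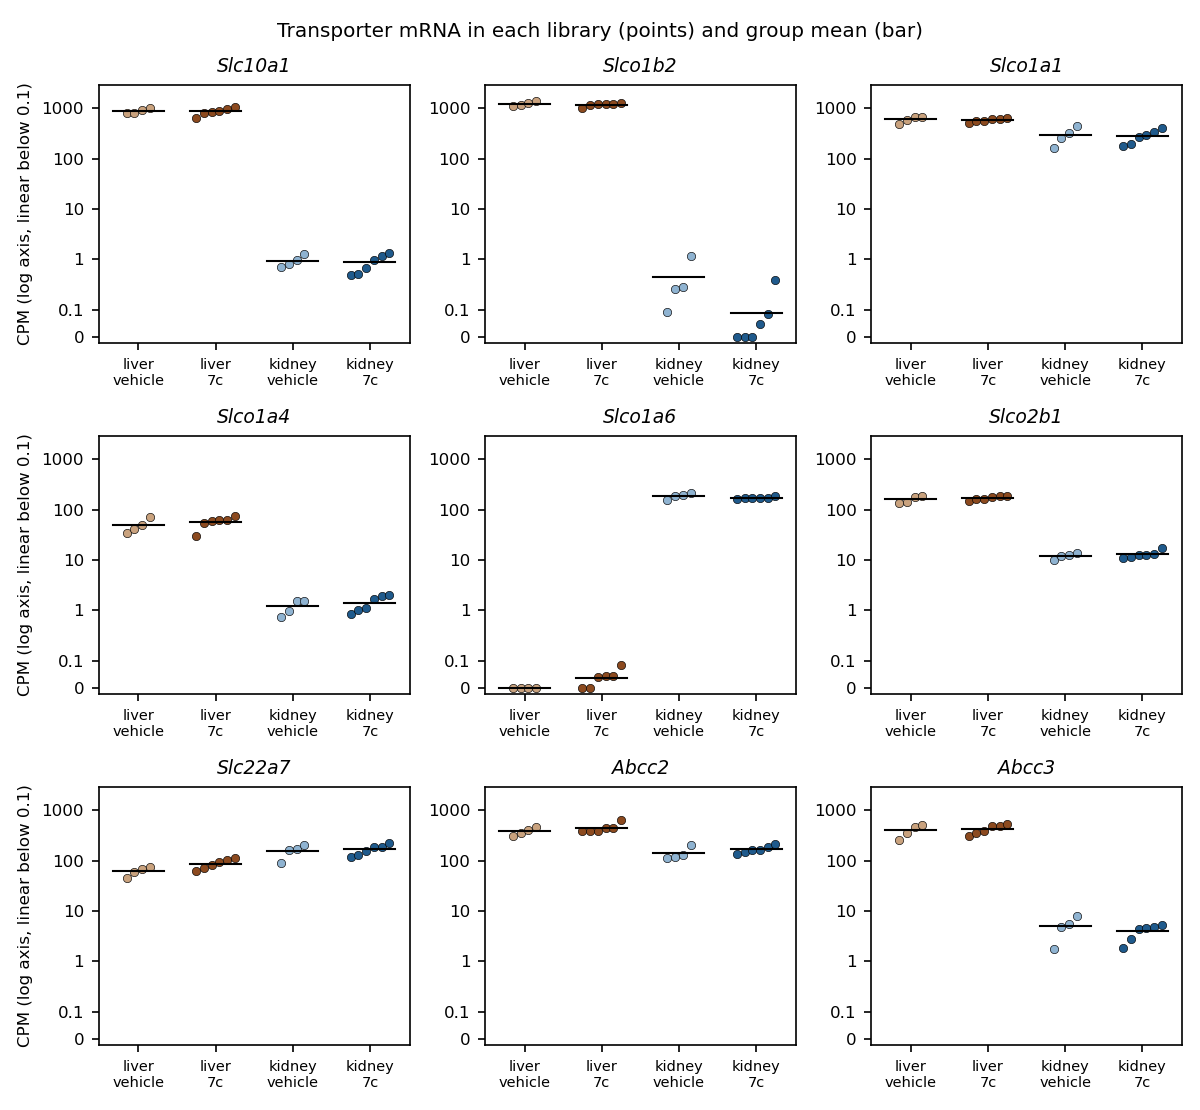
Level of each of the 9 transporter genes in each library, in CPM on an axis that is logarithmic above 0.1 and linear below it; points are libraries (4 vehicle and 6 7c per tissue) and bars are group means. Slco1b2 and Slc10a1 lay between 646 and 1424 CPM in the livers and between 0 and 1.34 CPM in the kidneys, Slco1a6 showed the opposite pattern, and within a tissue the vehicle and 7c points overlapped for all 9 genes.

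Of the uptake carriers at the sinusoidal membrane, Slc10a1 encodes NTCP, the sodium-dependent carrier that returns bile salts from portal blood to hepatocytes. Its level in the 4 vehicle livers was 999, 931, 829 and 806 CPM, and in the 4 vehicle kidneys 1.25, 0.806, 0.977 and 0.697 CPM. No kidney came near a liver, and the difference in vehicle mice was 9.89 on the log2 scale (SE 0.251, adjusted p = 5.9e-10, edgeR). In 7c mice it was 9.93 (SE 0.304, adjusted p = 3.42e-13). The kidney values rest on 20 to 97 counts per library.

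Slco1b2 encodes the mouse relative of the human hepatocyte carriers OATP1B1 and OATP1B3, which take up bilirubin conjugates and statins. It had 1424, 1259, 1160 and 1140.1 CPM in the 4 vehicle livers. In the 4 vehicle kidneys it had 55, 4, 12 and 10 counts, and in the 6 7c kidneys 4, 0, 4, 0, 0 and 20 counts. Liver thus exceeded kidney in every library of both treatments, and the log2 difference was 11.42 (SE 0.644, adjusted p = 7.48e-08) in vehicle mice and 13.60 (SE 0.556, adjusted p = 7.27e-12) in 7c mice. Set against the 81 kidney counts of all vehicle libraries together, the liver mean was 2702-fold higher (95% counting interval 2174 to 3403). Against the 28 counts of the 7c kidneys it was 13150-fold higher (9095 to 19780). Such intervals cover counting error only. Single kidneys weighed heavily in both contrasts, since the log2 difference became 12.47 without replicate 1 of the vehicle mice and 15.08 without replicate 6 of the 7c mice.

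Slco1a1, a carrier of bile salts and steroid conjugates at the hepatocyte sinusoid and, in mouse, at the apical membrane of the proximal tubule, was present in both organs. Vehicle livers had 681, 586, 496 and 663 CPM and vehicle kidneys 457, 167, 256 and 323 CPM, so that the highest kidney was below the lowest liver on this scale. The log2 difference was 1.01 in vehicle mice (SE 0.265, adjusted p = 0.00747) and 1.02 in 7c mice (SE 0.177, adjusted p = 0.000111), but with library totals in place of TMM it was 0.39 in both, with adjusted p = 0.245 and 0.0582. On that scale the vehicle livers spanned 421 to 569 CPM and the vehicle kidneys 189 to 579, which overlap. The other 8 genes passed the threshold in the same direction under either scaling, although library totals moved every difference toward kidney, by 0.59 to 0.64 on the log2 scale in 7c mice.

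The remaining liver-sided carriers were lower in abundance. Slco1a4 is found at the hepatocyte sinusoid and at the blood-brain barrier, and in liver it responds to ligands of the pregnane X receptor. It had 50.3, 72.9, 41.4 and 33.8 CPM in vehicle livers and 1.56, 0.985, 0.722 and 1.56 CPM in vehicle kidneys, a log2 difference of 5.36 (SE 0.335, adjusted p = 1.67e-07). Liver and kidney did not overlap in either treatment, and in 7c mice the difference was 5.30 (SE 0.269). Slco2b1, a widely expressed carrier of steroid sulfates, had 179, 187, 145 and 138 CPM in vehicle livers and 12.3, 10.01, 13.6 and 11.9 CPM in vehicle kidneys. Its log2 difference was 3.76 (SE 0.166, adjusted p = 1.17e-08) in vehicle mice and 3.69 (SE 0.127) in 7c mice.

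Only Slco1a6 and Slc22a7 among the 9 were higher in kidney. Slco1a6, a member of the Slco1a group known for its presence in mouse kidney, had 215, 155, 200.4 and 185 CPM in the vehicle kidneys and 0 counts in all 4 vehicle livers. At a limit of 3 counts over those 4 livers, it was at least 6873-fold lower in vehicle liver. The 7c livers held 0, 1, 0, 2, 1 and 1 counts, against 6855 counts or more in each 7c kidney, which made the liver 4875-fold lower with a counting interval of 2089 to 15020. Slc22a7 encodes OAT2, an organic anion carrier that also transports cyclic GMP. It was present in both organs, at 67.9, 60.5, 44.9 and 73.5 CPM in vehicle livers and 170, 204, 91.6 and 162 CPM in vehicle kidneys. The lowest kidney was above the highest liver, and the log2 difference, liver against kidney, was -1.35 (SE 0.241, adjusted p = 0.000662) in vehicle mice and -0.97 (SE 0.171, adjusted p = 0.000126) in 7c mice.

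Both export pumps were higher in liver, to unequal degrees. Abcc2 encodes MRP2, which exports conjugated bilirubin and glutathione conjugates into bile and is also found at the apical membrane of the proximal tubule. It had 311, 464, 360 and 414 CPM in vehicle livers and 117, 133, 111 and 207 CPM in vehicle kidneys, with a log2 difference of 1.45 (SE 0.218, adjusted p = 0.00019). Abcc3 encodes MRP3, a pump of the membrane facing blood that exports glucuronides, present in hepatocytes and bile duct cells. It had 469, 510, 361 and 260 CPM in vehicle livers against 4.82, 7.84, 5.50 and 1.73 CPM in vehicle kidneys, a log2 difference of 6.32 (SE 0.452, adjusted p = 5.03e-07). The differences in 7c mice were 1.36 (SE 0.150) for Abcc2 and 6.75 (SE 0.270) for Abcc3. Neither gene overlapped between the organs in vehicle mice on this scale. With library totals in place of TMM, Abcc2 spanned 241 to 375 CPM in the vehicle livers and 146 to 266 CPM in the vehicle kidneys, which overlap, and its log2 difference was 0.85 in vehicle mice (adjusted p = 0.00667, edgeR) and 0.72 in 7c mice (adjusted p = 0.000494). A list of 10 bile duct markers summed to 107 to 140 CPM in vehicle livers and 91.9 to 127 CPM in 7c livers, with 9 of 10 above 0 in every liver, and its part in the level of Abcc3 was not tested.

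Per kb of exon the liver and the kidney ranked the 9 genes differently. In vehicle livers the mean levels were 267 CPM per kb for Slc10a1, 194 for Slco1b2, 115 for Slco1a1, 67.0 for Abcc3, 44.5 for Abcc2, 28.2 for Slc22a7, 25.9 for Slco2b1, 5.83 for Slco1a4 and 0 for Slco1a6. The ranges of neighbours overlapped only for Abcc3 with Abcc2 and for Slc22a7 with Slco2b1. In vehicle kidneys the means were 71.7 CPM per kb for Slc22a7, 57.0 for Slco1a1, 49.6 for Slco1a6, 16.3 for Abcc2, 1.91 for Slco2b1, 0.833 for Abcc3, 0.279 for Slc10a1, 0.142 for Slco1a4 and 0.0686 for Slco1b2. There the 3 most abundant genes overlapped one another in neighbouring pairs, as did Abcc3 with Slc10a1 and Slco1a4 with Slco1b2. The order in the 7c groups was the same in both organs, with further overlap of Slc10a1 with Slco1b2 and of Abcc2 with Slc22a7 in liver and of Slc10a1 with Slco1a4 in kidney. In 7c kidneys Slco1a4 and Slco1b2 did not overlap.

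**Figure D2:**
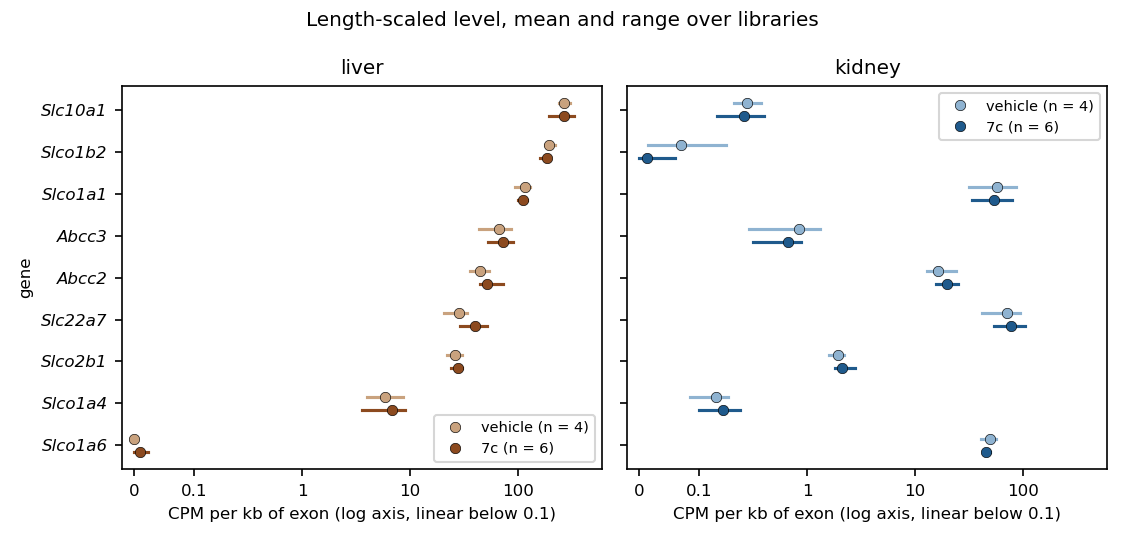
Level of the 9 genes per kb of exon in liver (left) and kidney (right), on an axis that is logarithmic above 0.1 CPM per kb and linear below it; points are means and lines the range over 4 vehicle or 6 7c libraries, with genes in the order of vehicle liver. Slc10a1 had the highest mean in liver (267 CPM per kb) and Slc22a7 in kidney (71.7 CPM per kb).

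Of the 9 genes, 4 lie in 1 cluster on chromosome 6 of GRCm39, where 8 Slco1 genes span 799.1 kb in the order Slco1c1, Slco1b2, Slco1a7, Slco1a4, Slco1a1, Slco1a8, Slco1a6 and Slco1a5. Within this stretch the organ of highest level differed from gene to gene. Slco1b2 and Slco1a4 were liver-sided, Slco1a1 was found in both organs, and Slco1a6, whose nearer end lies 456.3 kb from the start of Slco1b2, was kidney-sided. The other 4 genes of the cluster stayed at or below 0.512 CPM per kb in vehicle mice, the mean of Slco1a8 in kidney, and Slco1a7 had at most 2 counts in any library.

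**Figure D3:**
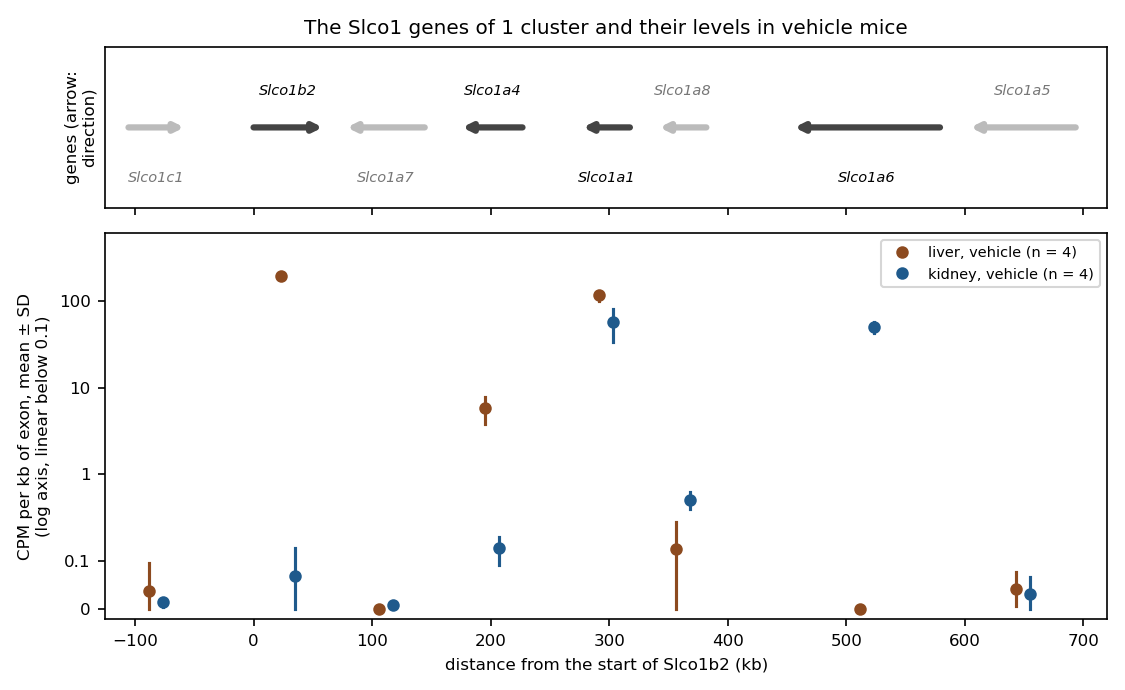
The 8 Slco1 genes of the chromosome 6 cluster by distance from the start of Slco1b2 in kb (top, arrows give the direction of transcription, dark arrows are the 4 genes followed) and their mean level ± SD in 4 vehicle livers and 4 vehicle kidneys (bottom, CPM per kb of exon, logarithmic above 0.1 and linear below it). Slco1b2 reached 194 CPM per kb in liver and Slco1a6 reached 49.6 CPM per kb in kidney.

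The DNA just upstream of the canonical transcript is shown for the most liver-sided and the most kidney-sided gene of the cluster. These 2 genes had opposite distributions. The 250 bases before the start of the canonical transcript were read from GRCm39, at chr6:141574929-141575178 on the plus strand for Slco1b2 and at chr6:142131880-142132129 on the minus strand for Slco1a6. Each is written 5′ to 3′ along the gene, and capitals mark the letters TATAAA.
Slco1b2: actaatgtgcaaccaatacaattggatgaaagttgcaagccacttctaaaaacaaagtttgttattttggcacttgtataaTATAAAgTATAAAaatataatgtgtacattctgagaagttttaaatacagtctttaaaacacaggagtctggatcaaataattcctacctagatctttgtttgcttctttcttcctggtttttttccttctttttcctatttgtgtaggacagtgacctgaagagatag
Slco1a6: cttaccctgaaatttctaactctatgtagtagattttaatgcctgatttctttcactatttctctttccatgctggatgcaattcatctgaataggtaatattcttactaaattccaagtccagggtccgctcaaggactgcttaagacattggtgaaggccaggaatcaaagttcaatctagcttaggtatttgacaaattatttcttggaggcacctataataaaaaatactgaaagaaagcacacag
The Slco1b2 stretch directly precedes its annotated gene and overlaps an exon of the long noncoding RNA gene Gm67350 on the other strand. The Slco1a6 stretch lies inside its annotated gene, which extends further upstream to chr6:142154247, and it overlaps no annotated exon. Windows from 250 bases before to 50 bases after the start were searched on both strands in 21664 protein-coding genes. TATAAA occurred in 13.2% of them and, among the 9 transporters, in Slco1a1 and Slco1b2. The half-site letters of the hepatocyte factor HNF1, GTTAAT, occurred in 6.91% and among the 9 only in Slco1b2, at bases -1 to 5. The full HNF1 site, a half-site, 1 base and the reverse complement of the half-site, occurred in 0.00462% and the HNF4 letters CAAAGTCCA in 0.452%, and in none of the 9 windows. These matches describe letters only.

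The second question was whether the transporters differed between 7c and vehicle mice. In liver, 8 of the 9 genes had enough counts to be tested and 0 passed the threshold, where 0.00666% of 15012 genes did. In kidney, 8 of 9 were tested and 0 passed, where 0% of 17749 genes did. DESeq2 called 18 and limma-voom 2 of the genes tested in kidney. At an unadjusted p below 0.05 there were 565 genes in liver, of which 1 was a transporter followed here, and 463 in kidney, of which none was. Of the 9, DESeq2 and limma-voom also called 0 in either organ. No gene had a 7c group lying wholly apart from its vehicle group, which 0.666% of the genes tested in liver and 0.716% of those in kidney did. The median log2 fold change over the genes tested was 0.08 in liver, with 5 of 8 above 0, and -0.01 in kidney, with 4 of 8 above 0, beside medians of all genes of 0.00 and -0.01.

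Slc22a7 in liver had the lowest unadjusted p of the 9, 0.0165 in edgeR's quasi-likelihood test, and an adjusted p of 1. The 7c livers ranged from 63.7 to 112 CPM with a median of 87.3, against 67.9, 60.5, 44.9 and 73.5 CPM in the vehicle livers. Of the 6 7c livers, 4 were above all vehicle livers and the other 2 were inside their range. The mean was 87.2 ± 18.6 CPM (SD, n = 6) with 7c and 61.7 ± 12.4 CPM (n = 4) with vehicle. The log2 fold change was 0.48 with a 95% interval of 0.14 to 0.82. Leaving out 1 library at a time gave values from 0.36 to 0.58, all at adjusted p above the threshold. In kidney Slc22a7 ranged from 117 to 227 CPM with 7c, median 173, beside 91.6 to 204 CPM with vehicle, and the log2 fold change was 0.09 (interval -0.35 to 0.52, adjusted p = 0.997).

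The intervals of the 3 most abundant hepatic uptake carriers included 0. Slco1b2 had 1028, 1203 and 1274 CPM as lowest, median and highest 7c liver beside a vehicle range of 1140.1 to 1424, and its log2 fold change was -0.09 (interval -0.27 to 0.08, adjusted p = 1). For Slco1a1 the 7c livers spanned 526 to 638 CPM, median 586, inside the vehicle range of 496 to 681, with a log2 fold change of -0.08 (interval -0.27 to 0.12). Slc10a1 spanned 646 to 1095 CPM, median 888, around the vehicle range of 806 to 999, with a log2 fold change of -0.03 (interval -0.28 to 0.22).

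The intervals of the other carriers and the pumps tested in liver, apart from Slc22a7, also included 0. Slco1a4 spanned 30.7 to 76.4 CPM with 7c, median 60.4, beside 33.8 to 72.9 with vehicle, and its log2 fold change was 0.20 (interval -0.25 to 0.65). For Slco2b1 the value was 0.06 (interval -0.14 to 0.27), with 148 to 188 CPM beside 138 to 187. The overlap of the groups was wide for both. Abcc2 had 382, 418 and 633 CPM as lowest, median and highest 7c liver, beside 311 to 464 with vehicle, and a log2 fold change of 0.19 (interval -0.11 to 0.48). Abcc3 had 314, 442 and 533 CPM beside 260 to 510 with vehicle, and a log2 fold change of 0.09 (interval -0.27 to 0.45). For each pump, 1 of the 6 7c livers was above all vehicle livers. Without replicate 6 of the 7c livers, the library with muscle transcripts, the value of Slc22a7 in liver was 0.53 and those of the 8 genes moved by -0.07 to 0.06.

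**Figure D4:**
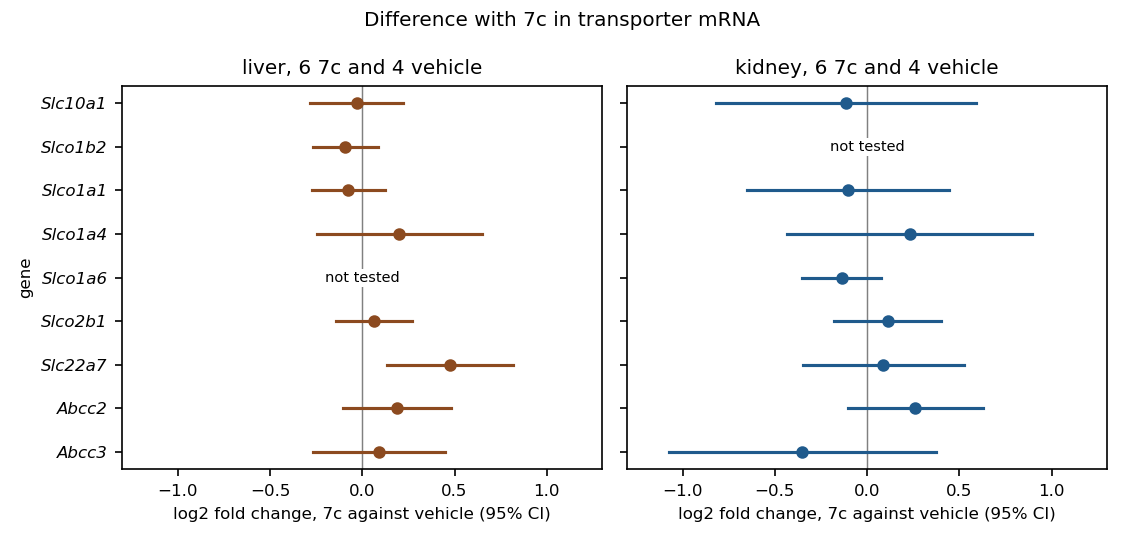
Log2 fold change of the 9 genes, 7c against vehicle, with 95% confidence intervals from edgeR in liver (left) and kidney (right), 6 7c and 4 vehicle libraries each. The interval of Slc22a7 in liver (0.14 to 0.82) was the only one of 16 that did not reach 0, before adjustment over all genes; Slco1a6 in liver and Slco1b2 in kidney had too few counts to be tested.

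In kidney the 3 most abundant carriers besides Slc22a7 also overlapped between treatments. Slco1a6 had 167, 172 and 187 CPM as lowest, median and highest 7c kidney, inside the vehicle range of 155 to 215, and a log2 fold change of -0.14 (interval -0.35 to 0.07, adjusted p = 0.997). Slco1a1 had 177, 285 and 413 CPM beside 167 to 457 with vehicle, and a log2 fold change of -0.11 (interval -0.65 to 0.44). Abcc2 had 135, 166 and 219 CPM beside 111 to 207, and a log2 fold change of 0.26 (interval -0.11 to 0.63). Slco2b1, Slco1a4, Slc10a1 and Abcc3 had log2 fold changes of 0.11, 0.23, -0.11 and -0.35, with SE 0.148, 0.339, 0.360 and 0.369. Abcc3 in kidney moved with single animals, since its value was -0.04 without replicate 2 of the vehicle kidneys and -0.63 without replicate 4.

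Whether a difference with 7c was unlike in liver and kidney was tested as an interaction for the 7 members with enough counts in both organs. None passed in edgeR, DESeq2 or limma-voom, where edgeR called 0.00706% of 14163 genes and 353 had an unadjusted p below 0.05. Among the 7 the lowest unadjusted p was 0.227 for Slc22a7, with a difference of 0.38 between the log2 fold changes (liver minus kidney, SE 0.305, adjusted p = 1). Abcc3 had the widest gap, 0.44 (SE 0.430). The other 5 differences lay between -0.08 and 0.06.

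Slco1b2 had too few counts in kidney for the filter, and its renal counts were therefore read beside those of other liver transcripts. As a share of the mean level in vehicle livers, Slco1b2 was at 0.0918%, 0.00719%, 0.0205% and 0.0224% in the vehicle kidneys and at 0% to 0.0306% in the 7c kidneys. The means were 0.0355% and 0.0069%, and 5 of 6 7c kidneys were below all vehicle kidneys. With no filter on low counts the log2 fold change was -2.30 (unadjusted p = 0.0325, adjusted p = 0.777, edgeR). Each mean rested mostly on 1 library. Without replicate 1 of the vehicle kidneys, which held 55 of the 81 vehicle counts, the vehicle mean was 0.0167% and the log2 fold change -1.22 (unadjusted p = 0.329, adjusted p = 0.941, edgeR). Without replicate 6 of the 7c kidneys, which held 20 of 28 counts, the 7c mean was 0.00215% and the log2 fold change -3.83 (unadjusted p = 0.00129, adjusted p = 0.747, edgeR). Among the 20 hepatocyte-restricted genes, 18 had a lower mean share in the 7c kidneys, and the median gene was at 0.0434% in vehicle kidneys and 0.0176% in 7c kidneys. The ratio of 7c to vehicle means ran from 0.122 to 1.51 over these 20 genes. At low ratios, the clotting factor gene F2 was at 0.0516% and 0.0121%, the cytochrome P450 gene Cyp2c29 at 0.0366% and 0.00608%, and the urinary protein gene Mup3 at 0.0295% and 0.00434%. At ratios near or above 1, the transthyretin gene Ttr was at 2.27% and 2.16%, the fibrinogen gene Fga at 0.285% and 0.281%, and the apolipoprotein gene Apoc3 at 0.264% and 0.398%. None of the 18 tested in kidney passed the threshold in edgeR's quasi-likelihood test, and 8 had an unadjusted p below 0.05. In the study's own edgeR comparison of these kidneys, F2, Cyp2c29, Mup3 and Ces1c were called lower with 7c at an adjusted p below 0.05. That was already known when the list was made, so these counts of genes are not independent evidence of a direction. Without these 4, the mean share was lower with 7c for 14 of 16 genes, the median gene was at 0.056% and 0.0238%, the median ratio was 0.541, and 4 of 14 tested had an unadjusted p below 0.05. The list summed to 209 to 294 CPM in vehicle kidneys and 98.5 to 295 CPM in 7c kidneys, where Ttr alone had means of 155.8 and 148.4 CPM. No list gene was at 0 in all libraries of a group, and the part of the list in the renal Slco1b2 counts was not tested.

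Slc10a1, also liver-sided, was read in the same way. Its share was 0.105% in vehicle kidneys and 0.0969% in 7c kidneys, a ratio of 0.923, where the ratio was 0.195 for Slco1b2, or 0.414 without vehicle replicate 1 and 0.0608 without 7c replicate 6, and 0.459 for the median hepatocyte-restricted gene. Of the 20 list genes, 5 had a higher ratio than Slc10a1. In each of the 10 kidneys the share of Slc10a1 was above that of Slco1b2. Srsf5, with which it shares exon bases, had 3876 to 12325 counts in the kidneys, and its part in the 20 to 97 counts of Slc10a1 was not tested.

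**Figure D5:**
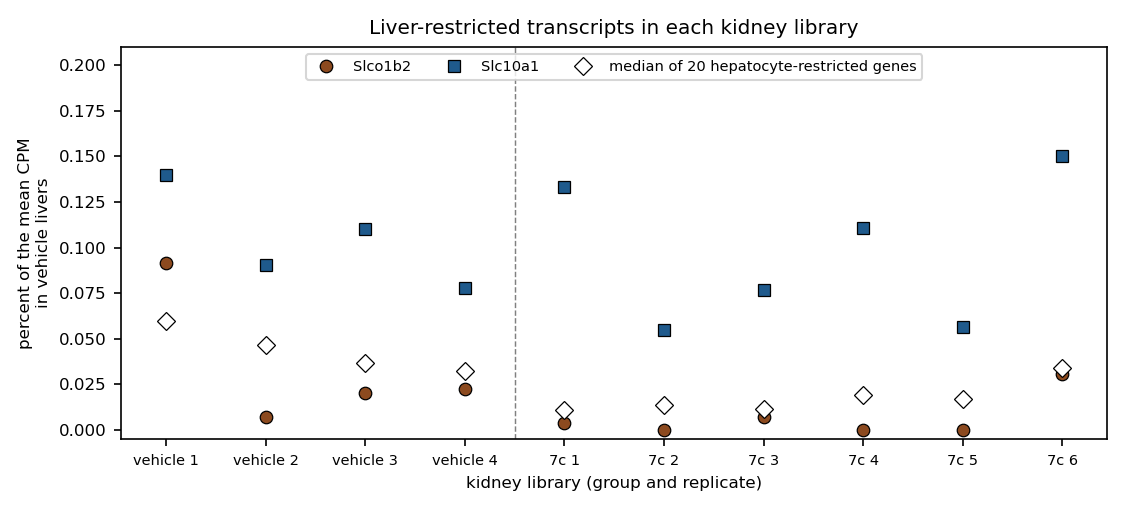
Level of Slco1b2, of Slc10a1 and of the median of 20 hepatocyte-restricted genes in each kidney library, as percent of the mean CPM of the 4 vehicle livers; the dashed line separates 4 vehicle from 6 7c kidneys. The median of the list was 0.0323% to 0.0595% in vehicle kidneys and 0.0109% to 0.0339% in 7c kidneys, and Slc10a1 lay above Slco1b2 in all 10.

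The genes varied unequally between animals of 1 treatment. In liver the SD of log2 CPM around the treatment means was 0.124 for Slco1b2 and 0.153 for Slco1a1 but 0.458 for Slco1a4, above 95.2% of the 500 genes nearest to it in level. In kidney it was 0.133 for Slco1a6, 0.522 for Slco1a1 and 0.727 for Abcc3, the last 2 above 93.2% and 95.8% of genes of like level. Slco1a1 was thus among the steadier genes of the 9 in liver and among the more variable ones in kidney. Across the 10 livers, deviations from the treatment means ran together most for Slco2b1 with Abcc3 (r = 0.876), Slco1a4 with Slco2b1 (r = 0.809) and Slco1b2 with Abcc3 (r = 0.8), and were opposed most for Slc22a7 with Slc10a1 (r = -0.538). In the 10 kidneys the highest value was 0.698, for Slco1a6 with Slco2b1, and the lowest -0.659, for Slco2b1 with Slc22a7. These values describe 10 libraries that share depth and scaling within a library.

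Protein-coding genes whose pattern was most like a member were sought in the same way, 2 for each member and organ. In liver they were Sdf2 and Dym for Slco1a1 (r = 0.973 and 0.962), Sp140 and Mthfd1 for Slco1a4 (0.975 and 0.935), Cers2 and Ddo for Slco1b2 (0.963 and 0.959), and Mettl17 and Plekhg3 for Slco2b1 (0.977 and 0.956). Also in liver, Etl4 and Myzap were closest to Slc22a7 (0.945 and 0.914), Lonp1 and Gc to Slc10a1 (0.969 and 0.96), Stk25 and Fhip2a to Abcc2 (0.943 and 0.912), and Chrnb2 and Foxk1 to Abcc3 (0.981 and 0.977). In kidney they were Arid3b and Zscan21 for Slco1a1 (0.946 and 0.944), Slu7 and Dnah17 for Slco1a4 (0.934 and 0.904), Apaf1 and Ampd3 for Slco1a6 (0.926 and 0.925), and Mgrn1 and Pcdh7 for Slco2b1 (0.95 and 0.906). For the rest, Faap20 and Wdr24 were closest to renal Slc22a7 (0.973 and 0.969), Oip5 and Tnfrsf18 to Slc10a1 (0.943 and 0.911), Afap1l1 and Stom to Abcc2 (0.902 and 0.888), and Ypel5 and Usp3 to Abcc3 (0.953 and 0.951). No gene was among the closest 2 of a member in both organs. Each is the highest value over all protein-coding genes tested in an organ, taken over only 10 libraries.

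Other transporters were taken as 2 lists. Of 28 other uptake carriers, 25 were tested between the organs of vehicle mice, and 4 were higher in liver and 18 in kidney, beside 25.7% and 27.7% of all genes tested. Of 21 other export carriers, 8 were higher in liver and 11 in kidney. With library totals in place of TMM the counts were 3 and 20 for uptake and 8 and 12 for export carriers, beside 13.9% and 47.3% of all genes. Slc22a30 was higher in vehicle liver than in kidney (99.3 ± 12.7 and 44.0 ± 10.3 CPM per kb, SD, n = 4 each, edgeR adjusted p = 0.000227) and Slc22a18 higher in kidney (71.9 ± 11.9 in liver and 307 ± 73.7 in kidney, edgeR adjusted p = 5.14e-06). Slc22a12, the urate exchanger, and Slc22a6, the basolateral anion carrier OAT1, had 462 ± 178 and 332 ± 58.6 CPM per kb in vehicle kidneys and no counts in vehicle livers. Abcb11, the bile salt export pump, had 163 ± 25.1 CPM per kb in vehicle liver and 0.0456 ± 0.0302 in kidney, and Abcg8, a partner in sterol export into bile, had 38.0 ± 7.95 and 0.0478 ± 0.0199. Slc47a1, an exporter of organic cations, had 52.4 ± 7.81 CPM per kb in liver and 198 ± 11.7 in kidney (adjusted p = 9.84e-07). The organic anion and phosphate carriers Slc17a1 and Slc17a3 were also higher in kidney, at 174 ± 13.8 and 83.7 ± 6.85 CPM per kb against 7.94 ± 1.34 and 14.2 ± 0.922 in liver.

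Between 7c and vehicle, no gene of the 2 transporter lists passed the threshold in either organ, and 2 export carriers in liver had an unadjusted p below 0.05, Abcc5 and Slc17a2. In liver the median log2 fold change was 0.04 for both the 15 uptake and the 19 export carriers tested, and in kidney it was -0.02 over 25 and -0.10 over 17. The list of nuclear receptors and other regulators of these transporters had 26 genes tested in liver and 22 in kidney, and their target genes 20 and 15. Both lists also had 0 genes past the threshold in either organ in edgeR's quasi-likelihood test. Their medians were -0.03 and -0.07 in liver and -0.05 and 0.04 in kidney. The study's own edgeR comparison called the target Cyp2c29 lower with 7c in kidney. At an unadjusted p below 0.05 there were 1 regulator and 3 targets in liver and 0 regulators and 4 targets in kidney. The 4 renal targets, the cytochrome P450 genes Cyp1a2, Cyp2c29, Cyp3a11 and Cyp3a25, had lower values with 7c and low levels, with means of 0.451 to 1.82 CPM in vehicle kidneys and 0.0994 to 0.366 CPM in 7c kidneys, and Cyp2c29 is also on the hepatocyte-restricted list. Of the targets, Cyp26a1, which degrades retinoic acid, had a log2 fold change of -0.44 in liver (SE 0.128, unadjusted p = 0.00432, adjusted p = 1). Genes that are higher in male liver (14 tested) and genes that are higher in female liver (11 tested) had 0 past the threshold in liver, with medians of -0.05 and 0.34 and with 4 of 14 and 11 of 11 above 0. In kidney 0 of 11 and 0 of 9 passed, with 0 and 1 at an unadjusted p below 0.05, and in liver there were 0 of either list at that level.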

How the data were processed

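Poly(A) RNA of 10 livers and 10 kidneys, 6 from 7c and 4 from vehicle mice in each tissue, was sequenced from stranded libraries. The deposited values are raw counts per gene, which the authors made with STAR 2.7.11b and featureCounts 2.0.6 on GRCm39, as the submitters' processing notes list them. The annotation release, the strand setting and the handling of reads with several positions are not given in the sources used here. Groups were taken from the labels. GENCODE vM39 gave symbols, positions and exon lengths for 56310 of 57010 Ensembl identifiers, and the remaining genes took 0.0417% of the counts.

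A gene entered a fit when 50% or more of its libraries had 10 or more counts. Tests used edgeR 4.0.16 (R 4.3.3), with TMM scaling, the quasi-likelihood F-test and Benjamini-Hochberg adjustment over all genes tested, at a threshold of 0.05. The 5 comparisons were 7c against vehicle in each organ, their interaction, and liver against kidney in each treatment. Intervals of fold changes are approximate 95% intervals, the estimate ± 1.96 SE. The SE was the absolute log2 fold change over the square root of F from the same fit. With a normal quantile these intervals are narrower than the F-test would give. Intervals of pooled counts are exact Poisson intervals. The lowest count limit used for a group at 0 was 3 counts. Log2 CPM for spread and correlation used a prior count of 2. P-values measure the spread between mice of a group as labelled.

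The 9 transporters and the 10 other gene lists (other uptake and export carriers, regulators, their targets, male- and female-predominant liver genes, and markers of hepatocytes, bile duct cells, proximal tubule and other cells) were chosen with earlier results of these data known. Named genes were the 9 members, the 3 most abundant carriers per list and organ per kb, list genes past the threshold with 7c, and the 2 genes most like each member. Genes named outside this rule were chosen after their values were seen. A gene that the rule names is not reported here. Each result was recomputed with DESeq2 1.42.0, with limma-voom from limma 3.58.1, with RLE scaling, unfiltered or with filterByExpr, with a replicate block, with liver and kidney fitted jointly, without each replicate, with other lengths or TPM, and, added after seeing the data, with library totals alone and, for renal Slco1b2, unfiltered without 1 library. The scripts were checked on simulated counts with known changes.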

Additional observations from a re-analysis of the deposited data

Results flagged for a closer look

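A sample lay far from the others of its group, by Dixon's criterion, in 5 of the 35 groups of transporter levels with 4 or 6 samples and a spread above 0, where chance gives about 5% of groups. Of these, 3 were replicate 6 of the 7c kidneys, which was the highest 7c kidney for Slco1a6 (187 CPM, gap 0.639 of the group's range), for Slco2b1 (17.2 CPM, 0.695) and for Slco1b2 (0.382 CPM, 0.776, from 20 counts). Only for Slco2b1 was that value above all vehicle kidneys. Replicate 5 of the 7c livers was the highest 7c liver for Abcc2 (633 CPM, 0.755), above all vehicle livers. Replicate 3 of the 7c livers was the lowest for Slco1b2 (1028 CPM, 0.627), below all vehicle livers.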

How the results depend on the processing

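No member passed the threshold in either 7c comparison or in the interaction under any alternative run, and all 9 passed in both organ contrasts under every alternative except library totals alone, which left 8, without Slco1a1. With the longest transcript as length, 7 of 9 members kept their rank in vehicle liver, as Slc22a7 and Slco2b1 changed places. Reversals of sign occurred only among values not past the threshold. With library totals alone the interaction of Slco1a1 was -0.012, and with limma-voom it was -0.0057. Leaving out 1 library or 1 number at a time gave, on the log2 scale, -0.098 to 0.047 for Slc10a1 and -0.061 to 0.22 for Abcc3 in liver. In kidney it gave -0.30 to 0.17 for Slco1a1, -0.28 to 0.060 for Slc10a1 and -0.10 to 0.24 for Slc22a7. In the interaction it gave -0.20 to 0.21 for Slco1a1, -0.32 to 0.29 for Slco1a4, -0.28 to 0.052 for Abcc2, -0.055 to 0.19 for Slc10a1 and -0.17 to 0.10 for Slco2b1. The cause of these shifts was not tested.

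The labels do not state that replicate numbers pair samples, and the main fits did not pair them. The correlation of same-numbered liver and kidney ran from 0.013 to 0.259 and was above 0.1 in 7 of 10 numbers. For 8 of 10 numbers the liver correlated best with the kidney of its own number, so pairing by mouse is possible. If so, the organ contrasts and the interaction treated libraries of 1 mouse as independent. With the replicate block, no member call changed in any comparison. In the organ contrasts and the interaction it joined the liver and kidney of 1 number. There 8744 and 11012 of all genes were called between organs in place of 9215 and 11246, and the interaction of Slco1a1 turned to -0.0049. Within an organ the block instead joined 7c and vehicle libraries of 1 number, which are different mice. It used only numbers present in both groups, which left out some 7c libraries. On that basis the log2 value turned to -0.032 for Abcc3 in liver and 0.0078 for Slco1a1 in kidney.

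Over all genes, DESeq2 called 6, 18 and 16 genes with 7c in liver, in kidney and for the interaction, where edgeR called 1, 0 and 1. A fit of both tissues called 4 and 18 in liver and kidney, and no filter called 4, 3 and 11. limma-voom called 1, 2 and 0, and filterByExpr 2, 0 and 2. Leaving out 1 library at a time gave 0 to 2, 0 to 3 and 0 to 6, the last without replicate 6 of the 7c mice. Depth limits Slco1a6 in liver and Slco1b2 in kidney, where most libraries had under 10 counts or none.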

Other observations

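Marker lists of other cells were also set against treatment. In liver, 0 of 20 hepatocyte-restricted, 0 of 9 bile duct, 0 of 5 proximal tubule and 0 of 6 other-cell markers tested passed the threshold with 7c, with median log2 fold changes of 0.04, -0.13, -0.10 and -0.07. The bile duct markers with the lowest unadjusted values were Epcam, an adhesion molecule of epithelia, with a log2 fold change of -1.39 (SE 0.405, adjusted p = 1 in edgeR), and Spp1, which encodes osteopontin, with -0.45 (SE 0.185, adjusted p = 1 in edgeR). In kidney, 0 of 18 hepatocyte-restricted, 0 of 10 bile duct, 0 of 14 proximal tubule and 0 of 12 other-cell markers passed in edgeR's quasi-likelihood test. Their median log2 fold changes were -1.01, 0.14, -0.03 and 0.02. The study's own edgeR comparison called F2, Cyp2c29, Mup3 and Ces1c of the hepatocyte list lower with 7c in these kidneys. Of the other-cell markers, the adipocyte genes Plin1 and Adipoq had renal log2 fold changes of 2.50 (SE 0.835, unadjusted p = 0.0106, adjusted p = 0.997 in edgeR) and 2.07 (SE 0.703, unadjusted p = 0.0119, adjusted p = 0.997 in edgeR). Plin1 ranged from 0 to 1.45 CPM in vehicle and from 0.88 to 8.59 CPM in 7c kidneys, and Adipoq from 0.0896 to 2.01 and from 1.34 to 9.14 CPM, so that the groups overlapped for both. Only Ces1c, a carboxylesterase gene of the hepatocyte list, passed in the interaction of all lists (2.54, liver minus kidney, SE 0.364, adjusted p = 0.00947 in edgeR). Its mean share of the vehicle liver level was 0.042% in vehicle kidneys and 0.0071% in 7c kidneys. The call did not hold throughout. No gene passed in the interaction with limma-voom, with the replicate block, or without 7c replicate 3, vehicle replicate 1 or vehicle replicate 4. Ces1c was also known to be lower in these 7c kidneys when the list was made.

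In the livers, 14 proximal tubule markers summed to 7522 to 10230 CPM with vehicle and 8545 to 11880 CPM with 7c, mostly from Cyp2e1 (mean 7314 and 8443 CPM) and Fbp1 (1281 and 1381 CPM), which hepatocytes also express. The other 12 summed to 159 to 230.1 CPM and 133 to 219 CPM, mostly from Aqp1 (mean 127 and 120.6 CPM) and Slc4a4 (72.6 and 63.96 CPM). Slc34a1, Kap and Miox had no counts in any liver. The 16 markers of other cells summed to 131 to 223 CPM with vehicle and 154 to 573 CPM with 7c. The highest sum was that of replicate 6 of the 7c livers, where the skeletal muscle genes Acta1 and Myh4 were at 281 and 200 CPM. Without these 2 genes the range was 92.2 to 257 CPM with 7c. Of the proximal tubule markers, 7 were at 0 in all 4 vehicle livers and 5 in all 6 7c livers, and the counts were also 7 and 5 for the markers of other cells.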
